A study of Mus musculus with 37 samples.

Results

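The genes described here are those whose symbols start with Mrpl or Mrps followed by a digit, the nuclear genes that encode proteins of the mitochondrial ribosome, in brown adipose tissue (BAT) of the BXD mice. Copies marked as pseudogenes were left out, and a gene with more than 1 probe set was taken by the one whose mean over the BXD strains was highest. This gave 76 genes of the 24657 gene symbols in the table, 47 named for the large subunit (Mrpl) and 29 for the small subunit (Mrps), measured by 98 probe sets, with 12 genes measured by more than 1. BAT of male mice from 35 BXD strains and from both parents of the panel, C57BL/6J and DBA/2J, was profiled on Affymetrix MoGene 2.0 arrays, and 1 array was run for each strain. As recombinant inbred lines of these parents, the BXD mice carry a fixed mixture of both genomes and no transgene or engineered allele. All mice ate a chow diet for life, were killed at 29 weeks after a night without food, and each array received RNA combined from about 5 mice. There is therefore no replicate within a strain, and a difference between strains holds genetic, environmental and array differences that cannot be told apart. The values are scores that the authors rescaled to a mean of 8 and an SD of 2 on each array. They are called units below and are not read as folds, since the scale before rescaling is not known.

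The mitochondrial ribosome translates the messenger RNAs of mitochondrial DNA, all of which encode subunits of the respiratory chain and ATP synthase. Its RNAs are made inside the organelle, whereas all of its proteins are made in the cytosol from nuclear genes and imported. Complexes I, III, IV and V combine subunits of both origins, complex II is wholly nuclear, and brown fat is rich in mitochondria that burn fuel for heat through UCP1. Mrps5, a small subunit protein with a bacterial counterpart, is known from worms, in which lowering its counterpart lengthens life.

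Promoter sequences were compared because many of the 76 transcripts moved together. The RefSeq windows (GRCm38.p6) run from 250 bases before to 50 bases after a gene's start, and 67 of the 76 genes had 1 or more, 73 windows in all. Letters were searched on both strands for 6 motifs, none of which contains another. The NRF1 letters GCGCANGCG were present in 20.5% of the 73 windows and in 6.25% of all 32851 windows. ETS letters (CCGGAAG), read by GABP among other factors, were in 32.9% against 8.86%. YY1 letters (AAGATGGC) were in 16.4% against 2.75%, and in 8 of the 12 windows with them they reached past the start. GGGCGG, the letters of Sp1, were in 52.1% against 35.7% and CCAAT in 41.1% against 37.4%, while TATAAA was in 6.85% against 13.6%. These matches describe letters, not occupied sites. By the probe sets used, the 3 genes that followed the other members most closely over strains were Mrps18b, Mrps33 and Mrpl37. The 2 that followed least were Mrps6 and Mrpl27. The windows shown are those of these genes, of Mrps5 and of Mrpl35, the gene with a gap between strains. Each runs over the 250 bases before the start, 5′ to 3′ on the gene's strand, and capitals mark any of the 6 motifs on either strand.
Mrps5 (chr2:127587176-127587425, plus strand): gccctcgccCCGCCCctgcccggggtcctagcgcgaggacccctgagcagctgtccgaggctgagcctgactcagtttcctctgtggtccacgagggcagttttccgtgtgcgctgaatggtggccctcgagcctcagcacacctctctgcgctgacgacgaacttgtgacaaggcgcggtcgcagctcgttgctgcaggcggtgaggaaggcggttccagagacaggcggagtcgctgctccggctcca
Mrps18b (chr17:35916441-35916690, minus strand): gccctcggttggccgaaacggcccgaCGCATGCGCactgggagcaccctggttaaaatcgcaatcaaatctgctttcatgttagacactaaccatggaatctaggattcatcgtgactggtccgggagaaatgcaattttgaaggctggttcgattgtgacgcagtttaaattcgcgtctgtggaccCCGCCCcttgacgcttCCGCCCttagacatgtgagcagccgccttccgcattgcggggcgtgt
Mrps33 (chr6:39810937-39811186, minus strand): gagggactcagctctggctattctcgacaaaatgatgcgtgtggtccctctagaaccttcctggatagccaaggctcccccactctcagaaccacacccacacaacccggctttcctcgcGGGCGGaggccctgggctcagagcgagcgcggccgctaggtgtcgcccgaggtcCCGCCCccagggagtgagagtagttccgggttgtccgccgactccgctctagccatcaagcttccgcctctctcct
Mrpl37 (chr4:107066867-107067116, minus strand): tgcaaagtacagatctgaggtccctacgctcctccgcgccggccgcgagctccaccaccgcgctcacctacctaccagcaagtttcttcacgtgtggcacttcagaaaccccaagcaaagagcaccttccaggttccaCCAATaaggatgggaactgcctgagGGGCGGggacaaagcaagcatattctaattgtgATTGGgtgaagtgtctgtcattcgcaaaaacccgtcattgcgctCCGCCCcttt
Mrps6 (chr16:92058086-92058335, plus strand): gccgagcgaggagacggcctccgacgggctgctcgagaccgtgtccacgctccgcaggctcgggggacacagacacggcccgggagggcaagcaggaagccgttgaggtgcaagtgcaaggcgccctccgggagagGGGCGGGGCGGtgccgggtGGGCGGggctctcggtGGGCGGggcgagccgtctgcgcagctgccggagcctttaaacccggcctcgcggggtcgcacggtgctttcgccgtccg
Mrpl27 (chr11:94653541-94653790, plus strand): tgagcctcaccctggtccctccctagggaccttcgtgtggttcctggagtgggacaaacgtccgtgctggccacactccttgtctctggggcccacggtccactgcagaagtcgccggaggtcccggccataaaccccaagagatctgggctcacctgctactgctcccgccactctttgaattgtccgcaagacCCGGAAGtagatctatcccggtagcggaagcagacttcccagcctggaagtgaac
Mrpl35 (chr6:71823785-71824034, minus strand): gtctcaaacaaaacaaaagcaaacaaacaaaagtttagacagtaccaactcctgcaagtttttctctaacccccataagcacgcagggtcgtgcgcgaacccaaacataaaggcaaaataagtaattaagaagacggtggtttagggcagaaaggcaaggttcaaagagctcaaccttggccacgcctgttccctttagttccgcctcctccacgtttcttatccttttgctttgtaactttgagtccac
In Mrps18b the capitals nearest the 5′ end are NRF1 letters on the opposite strand, and the single run in Mrpl27 is an ETS match. The capitals in Mrps5, Mrps33 and Mrps6 are Sp1 letters, which overlap in the first run of Mrps6, and those of Mrpl37 are Sp1 and CCAAT letters. None of the 6 motifs lay before the start of Mrpl35, whose window held YY1 letters after it. Matches that reached past the start also gave ETS letters to the windows of Mrps18b and Mrps33, and YY1 letters to that of Mrpl37. As a description, the median correlation of a gene with the mean of the other members, defined below, was 0.60 for the 15 genes with NRF1 letters and 0.53 for those without, and 0.53 and 0.54 with and without ETS letters. With and without the other letters it was 0.56 and 0.54 for YY1, 0.46 and 0.56 for Sp1, 0.53 and 0.54 for CCAAT and 0.46 and 0.54 for TATAAA, and no test of these differences was run.

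Nearly all of the genes were detected. The limit was 7.94 units, the 95th percentile of the BXD means of 1128 olfactory receptor probe sets. These are genes of odour sensing that fat is not thought to use. Above the limit lay 75 of the 76 genes, against 47.2% of all probe sets. That share takes in every probe set, named or not, whereas each of the 76 genes is taken by its highest probe set. Only Mrps14 lay below, at 7.23 ± 0.23 units (SD, n = 35 strains), from 6.79 in BXD64 through a median of 7.24 to 7.83 in BXD99, so that 0 of 35 strains passed the limit. Mrpl27, Mrps18c and Mrps36 had means just above it, and 19, 24 and 22 of the 35 strains passed. The BXD means of the 76 genes ran from 7.23 to 12.26 with a median of 10.03, but levels on this array depend on the probes and are not compared between genes. The tissue label held: Ucp1, the uncoupling protein of brown fat, was at 15.37 ± 0.23 units and Cidea, a lipid droplet protein abundant in brown fat, at 14.73 ± 0.11 units (SD, n = 35 each). All 10 genes of the brown fat list lay above the limit. The pools also held muscle transcripts. All 12 genes of the skeletal muscle list lay above the limit, with Acta1 at 14.25 ± 0.78 and Atp2a1 at 14.35 ± 0.75 units (SD, n = 35 each).

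The spread over strains was modest for most members. The median SD over the 35 BXD strains was 0.17 units (0.10 to 0.37) and the range, highest minus lowest, a median of 0.72. Over all probe sets above the limit these medians were 0.19 and 0.83. A range of at least 1 unit was found for 11 of the 76 genes, 14.5%, against 35.2% of all probe sets above the limit. With the 5th to 95th percentile in place of the full range, 2 genes reached 1 unit, and the other wide ranges rested on strains at the ends. No strain stood apart from the next by 1 unit in any member, and the largest such gap was 0.42 units, for Mrpl20.

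The widest members were large subunit genes. Mrpl27 ran from 7.10 in BXD90 through a median of 8.0 to 8.83 in BXD99, a range of 1.73 units around the detection limit, with C57BL/6J at 8.39 and DBA/2J at 8.14. Mrpl27 was measured by 4 probe sets, and the other 3 lay below the limit and correlated with it at r of 0.13, 0.37 and -0.14 over strains. Mrpl20, whose product has a bacterial counterpart needed to assemble the large subunit, ran from 8.80 in BXD97 through 9.66 to 10.52 in BXD87. BXD87 stood 0.42 units above the next strain, while no gap with at least 5 strains on each side was wider than 0.08 units, and the parents were at 9.76 (C57BL/6J) and 10.26 (DBA/2J).

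Mrpl35 fell into a lower and an upper set of strains. It lay between 9.85 (BXD50) and 10.32 in 8 strains and between 10.63 and 11.14 (BXD90) in 27, with a gap of 0.31 units, the widest inside any member's range with at least 5 strains on each side. C57BL/6J, at 11.06, lay among the upper strains and DBA/2J, at 10.05, among the lower. The groups on either side of the gap are defined by these values, so no test of them is given. Of the 20 genes whose levels were most like Mrpl35 in absolute r, 6 lay on its chromosome, 6, and 4 within 50 genes of it in the GRCm38.p6 order. These were Immt, its direct neighbour and a protein of the mitochondrial inner membrane (r = 0.64), Polr1a, a subunit of RNA polymerase I (0.62), Mat2a, which makes S-adenosylmethionine (0.59), and Dnahc6, a dynein (-0.64). For the 76 members the median was 1 of 20 on the same chromosome, and 5.63% of all gene pairs share one. Mrps15 also had 4 neighbours among its 20, led by Gm12887 and Gm10573 (both 0.71) and the adjoining Oscp1 (0.69). Single neighbours of other members were larger in absolute r. They were Cygb for Mrpl38 (17 genes away, r = -0.80) and Rad17 for Mrps36 (5 genes away, 0.78). How often any gene has such neighbours among its 20 was not measured. Neighbours were looked up after the values had been seen, and strain genotypes were not used here.

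Mrpl3, next in width among the genes above, ran from 10.20 in BXD64 through 10.49 to 11.47 in BXD95, with 25 strains up to 10.69 and 10 from 10.86 upward. C57BL/6J was at 11.41 and DBA/2J at 10.65. Among its 20 most alike genes were Aste1, 4 genes away (r = 0.67), and Ryk, a receptor for Wnt proteins, 17 genes away (0.55). The rest of the 10 widest were Mrpl32 (range 1.21 units), Mrpl34 (1.15), Mrpl54 (1.12), Mrps14 and Mrps23 (1.05 each), and Mrpl47 and Mrps2 (1.02 each), the last of these tied at the tenth place. In Mrpl34 the lowest strain was at 11.58 and the highest at 12.72, and C57BL/6J exceeded every BXD strain at 12.83.

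**Figure D1:**
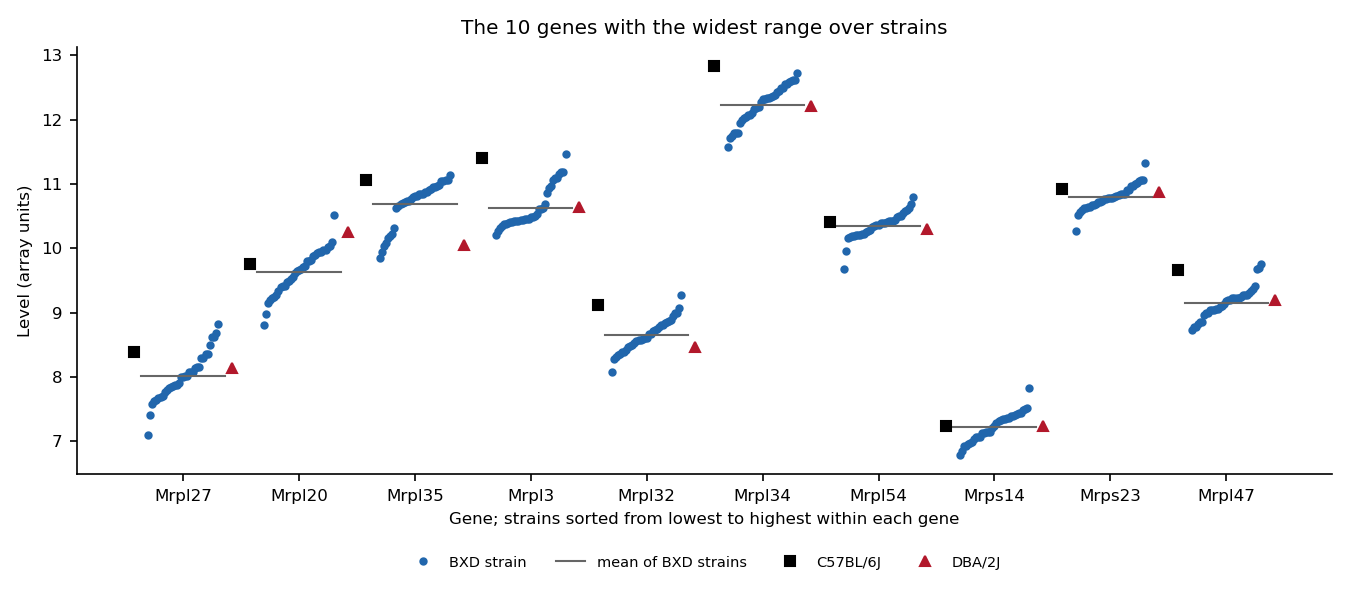
Levels in array units of the 10 genes with the widest range, with 1 point per BXD strain sorted from low to high, a line at the mean of the 35 strains, a square for C57BL/6J and a triangle for DBA/2J. Mrpl35 breaks between 10.32 and 10.63 with the parents on opposite sides, whereas the wide steps of Mrpl20 and Mrpl27 lie at an end of their range, at BXD87 and BXD90.

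The members varied together over strains. Among the 2850 pairs of members the median Pearson's r over the 35 strains was 0.25, and 447 pairs, 15.7%, reached r of at least 0.5. Among all pairs of probe sets above the limit, 1.09% did so and the median was -0.00. Positive r was found for 84.8% of member pairs and 49.9% of all pairs. These pairs share arrays and genes, so the shares are given without a test. In a bulk sample, fewer cells of a type and less RNA per cell cannot be told apart. With arrays rescaled by quantile normalization, centred on their median or with the skeletal muscle list regressed out, the number of such pairs stayed within 1.5 times the 447. With the white fat and macrophage lists regressed out it was 228.

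Covariation was compared within and between the subunits. Pairs within the large subunit reached r of at least 0.5 in 14.5% of cases, pairs within the small subunit in 17.5% and pairs of 1 large and 1 small subunit gene in 16.1%, and the means of the 47 Mrpl and 29 Mrps genes correlated at r = 0.90. Some symbols predate the structures. The products of Mrps30 and Mrps18a are now placed in the large subunit, and that of Mrps36 is assigned to the oxoglutarate dehydrogenase complex. The values above keep these genes in the small subunit by symbol, and in the division below Mrps36 is among the 28. A second division, by whether the protein has a counterpart in bacterial ribosomes (48 genes) or is found in mitochondria alone (28 genes), was made from general knowledge of the family. Pairs of mitochondrion-specific genes reached r of at least 0.5 in 25.7% of cases with a median of 0.36, and pairs with bacterial counterparts in 10.2% with a median of 0.20. The median SD was 0.17 units in both.

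The same measure was taken for other assemblies. The 78 nuclear genes of the respiratory chain had 14.9% of their pairs at r of at least 0.5, close to the mitochondrial ribosome, and the 80 cytosolic ribosomal protein genes (symbols Rpl or Rps and a digit, paralogues included, S6 kinases and Rps19bp1 left out) 6.36%. Of these 80, 65 lay above the detection limit, and 8.75% of their pairs reached r of 0.5. Pairs of 1 mitochondrial ribosomal and 1 respiratory chain gene reached it in 8.27% of cases (median r 0.17). Pairs of 1 mitochondrial and 1 cytosolic ribosomal gene did so in 0.822%, with a median of -0.01, and in 0.985% where both lay above the limit, against 1.09% of all pairs above it. A first principal component of the scaled values took 31.2% of the variance of the 76 members, 27.6% of the respiratory chain genes and 19.5% of the cytosolic ribosomal genes.

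**Figure D2:**
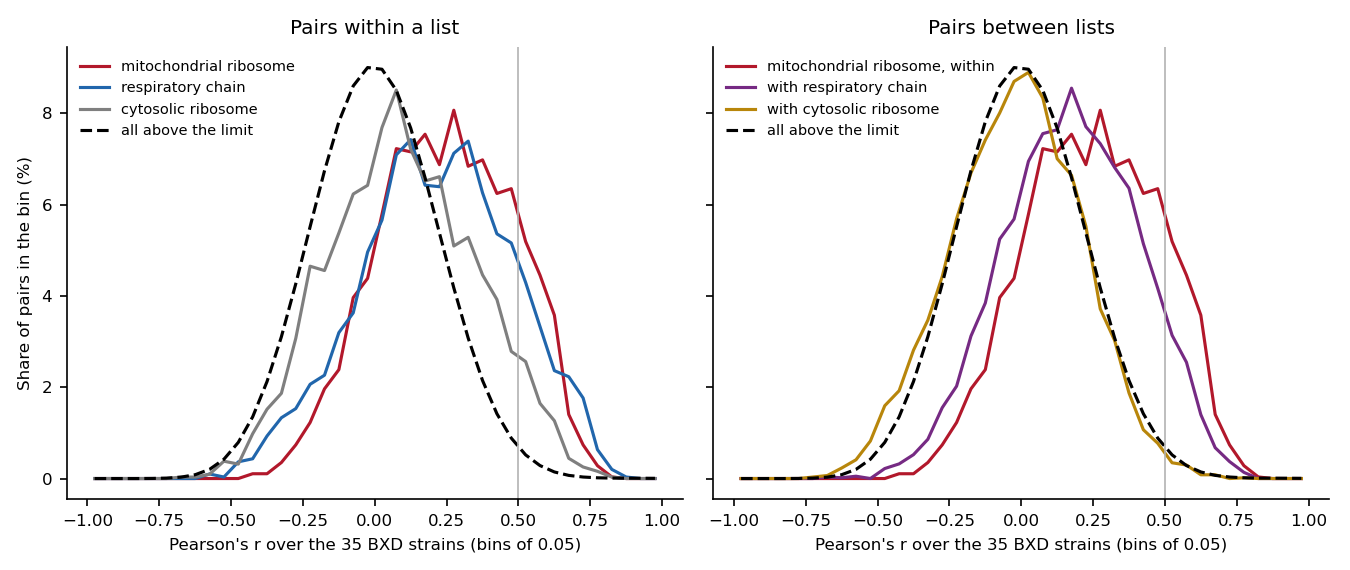
Share of gene pairs in each bin of Pearson's r over the 35 BXD strains, for pairs within a list at the left and between lists at the right, with all pairs of probe sets above the detection limit dashed and r of 0.5 marked. The curve of the mitochondrial ribosome is shifted to the right of all pairs, with a median of 0.25, and its pairs with the cytosolic ribosome lie around -0.01.

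Each gene was then set against the mean of the other 75. This r ran from -0.24 to 0.87 with a median of 0.54, and 40 of the 76 genes reached 0.5. For comparison, 5.94% of all probe sets above the limit had r of at least 0.5 with the mean of all 76 members. Mrps18b was highest at 0.87, followed by Mrps33 (0.82), Mrpl37 (0.80), Mrps21 (0.79) and Mrpl51 (0.76). The order holds for the probe sets used. Mrpl43 was at 0.46, but a further probe set of it, at 10.28 units, had r of 0.90 with the mean of all members. The remaining probe sets of Mrpl43 were at 0.39 to 0.67. Lowest were Mrpl27 at -0.24, Mrps6 at -0.00, Mrps28 (0.05), Mrpl24 (0.08) and Mrpl23 (0.11). The negative value of Mrpl27 holds only for the probe set used, whose mean lay just above the detection limit. Its other probe sets, all below the limit, had r of 0.18, 0.33 and 0.26 with the mean of all members. Mrpl35 and Mrpl3, with their grouped values, were at r of 0.13 and 0.26. By Spearman's rho they were at 0.36 and 0.32.

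Mrps18b needs a reservation. Its gene lies on chromosome 17, but the number of the probe set used falls between those of Ccdc148 and Wdsub1 on chromosome 2, where all 20 of the nearest named probe set numbers belong to chromosome 2. Whether it reads a copy of the gene there was not tested. A second probe set, numbered among chromosome 17 genes, had a mean of 11.03 ± 0.14 units (SD, n = 35), correlated with the first at r = 0.75 and with the mean of the members at 0.75. The main results for Mrps18b are given with both. Of the 76 probe sets used, 74 had numbers that fell among genes of their own chromosome, and Mrpl21 was the other exception, at the border between chromosomes 18 and 19.

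As a test across all features, each member in turn was used as a covariate in limma, which asks for every other probe set whether its level changes with that member over strains. Of the 76 members, 37 had at least 1 other member with an adjusted p under 0.05 (limma, Benjamini-Hochberg), always with a positive slope. Mrps18b had the most, 34 of the other 75, where 1.45% of all probe sets were called with a positive slope. By its second probe set, chosen after seeing the data, the count was 6, against 0.173% of all probe sets. Mrps21 and Mrps31 had 26 each, against 1.30% and 2.36% of all probe sets. Mrpl38 had 24, with 946 probe sets of any kind called with a positive slope, where Mrps31 had 973. For 53 of the 76 members at least 1 probe set of any kind passed. How often a gene outside the 76 would call a member was not measured. The number of members with another member called stayed between 28 and 44 under the alternatives.

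Strains at the ends were shared by many members. The mean of the 76 genes ran from 9.94 units in BXD62 through a median of 10.11 to 10.27 in BXD87, with an SD of 0.089. In BXD62 only 9 of the 76 genes were above their own median over strains, in BXD79 11 and in BXD97 12, whereas 63 were above it in BXD45, 62 in BXD101, 61 in BXD90 and 59 in BXD87. BXD87 held the highest value of 15 members and BXD79 the lowest of 9. BXD95 was mixed, with the highest value of 7 members, among them Mrpl3 and Mrpl47, and the lowest of 6, among them Mrpl54.

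**Figure D3:**
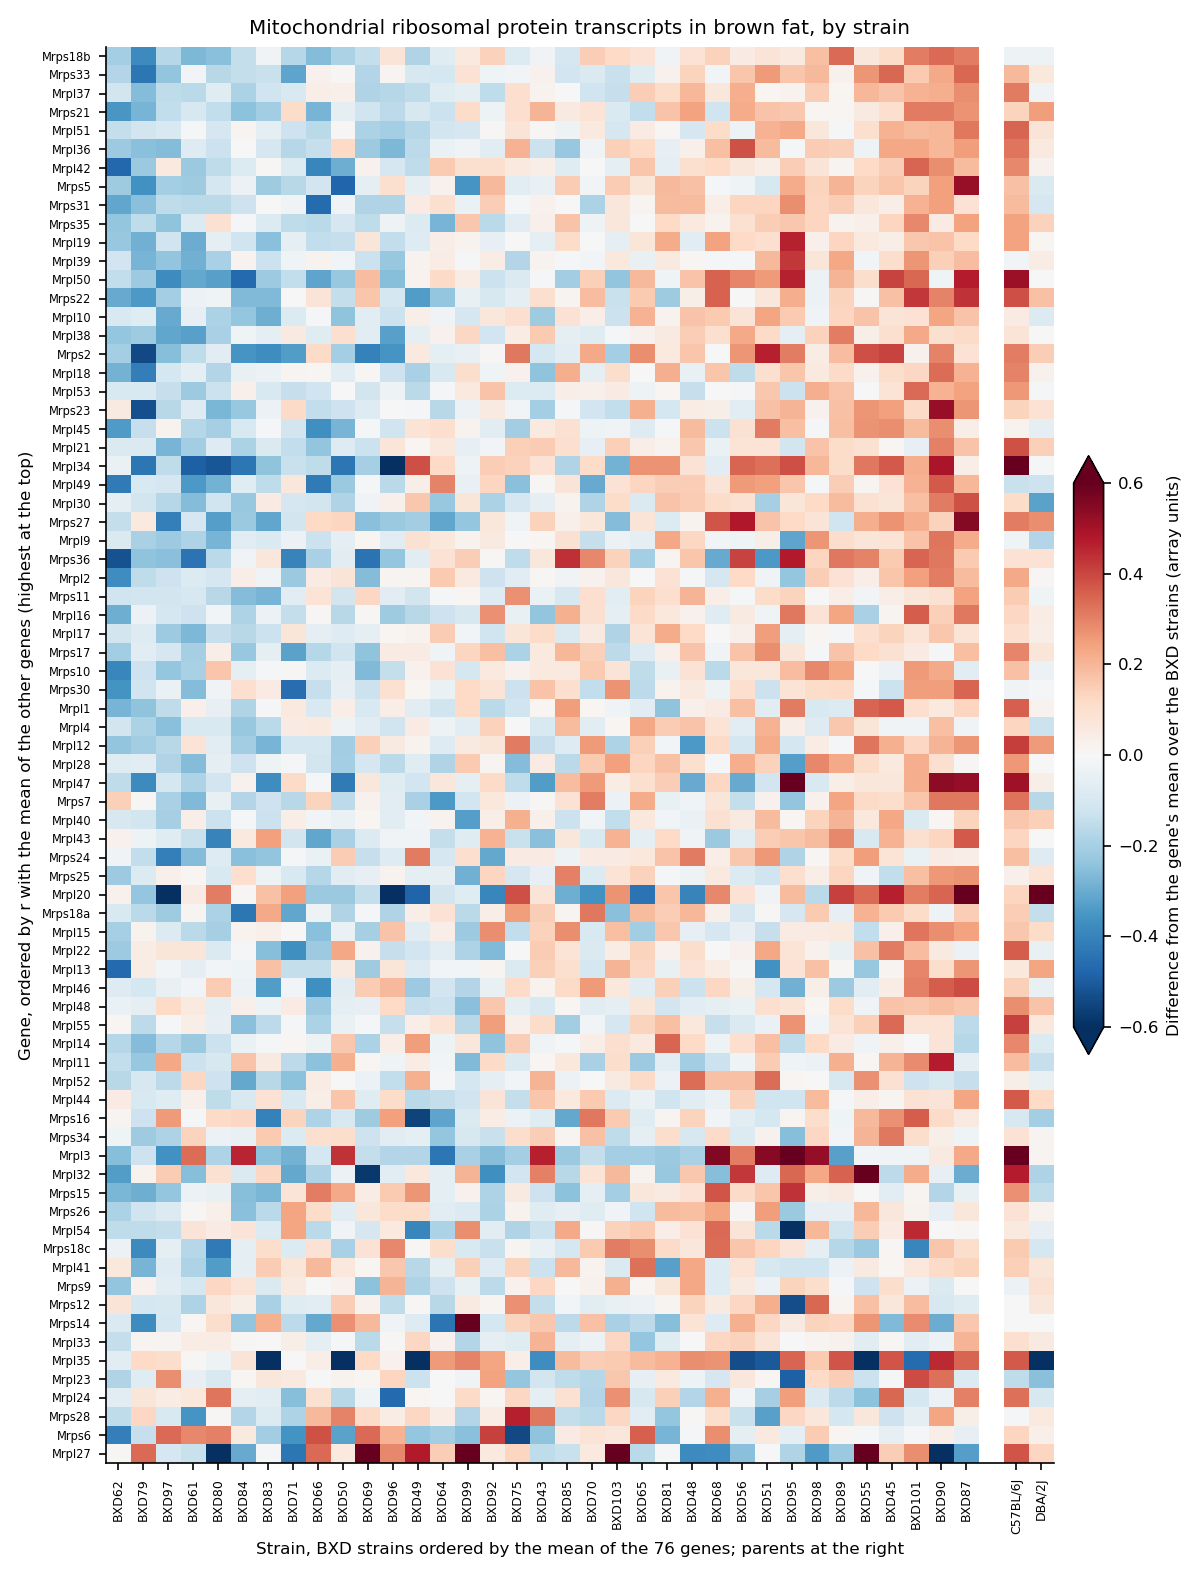
Each row is 1 of the 76 genes and each column 1 strain, and the colour is the difference in array units from the gene's mean over the BXD strains, cut at 0.6 in either direction. Strains are ordered by the mean of the 76 genes and genes by their r with the mean of the others. The upper rows therefore pass from blue in BXD62 to red in BXD87, while the lowest rows, such as Mrps6 and Mrpl27, do not follow.

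C57BL/6J stood at the upper edge of the panel. Its mean over the 76 genes was 10.30 units, above every BXD strain, and that of DBA/2J was 10.11, at the BXD median. Of the 76 members, 64 were lower in DBA/2J than in C57BL/6J and 11 higher, with a median difference of -0.17 units, where 47.8% of all probe sets above the limit were lower in DBA/2J and the median was 0.01. The respiratory chain genes differed alike, with 71 of 78 lower in DBA/2J and a median of -0.16. Only Mrpl35, at -1.01 units, passed 0.77 units, the 95th percentile of the absolute difference over all probe sets. Mrpl3 lay just within it (-0.77), and Mrpl20 was higher in DBA/2J by 0.50 units. With 1 array per parent these differences have no replicate check. The means of the liver list were 7.27 in C57BL/6J and 10.22 in DBA/2J, and those of the macrophage list 9.35 and 9.97, and the part of either in the difference was not tested.

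The link to the respiratory chain was measured with the mean of the 78 nuclear subunits of complexes I to V. Over the 35 strains the mean of the 76 members correlated with it at r = 0.72 (Spearman's rho 0.71), and at 0.71 without BXD62 and BXD79, the strains farthest from the median. The value is a description, since the members were chosen with results of these data known. It differed by complex: r was 0.80 with complex I (35 genes), 0.71 with complex III (9), 0.63 with complex II (4), 0.56 with complex V (16) and 0.23 with complex IV (14). The value for complex IV rested on how its genes were averaged. With each gene scaled to an SD of 1, an alternative chosen after seeing the data, r was 0.49 for complex IV and 0.53 for complex V, and the median r of single genes was 0.29 and 0.21. Cox6a2 had an SD of 0.89 units over strains, the widest of the 14 genes, and Cox7c 0.46. With the 12 transcripts of mitochondrial DNA, the templates that this ribosome reads, r was -0.29. Most of these transcripts lay near 16 units, close to the highest mean of any probe set, 16.33, and ND6, at 11.43 units, had r of -0.33.

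Other factors of mitochondrial gene expression were set against the members in the same way, again as a description. The mean of the 17 mitochondrial tRNA synthetases, which charge the tRNAs for this ribosome, correlated at r = 0.91, led by Yars2 (0.84) and Hars2 (0.75), and 8 of the 17 genes reached 0.5. Translation factors (14 genes) were at 0.81, with Gfm1, an elongation factor, at 0.61 and the RNA-binding protein Lrpprc at 0.59. Ribosome assembly factors (23 genes) were at 0.78, with Eral1, a chaperone of the small subunit RNA, at 0.80. Factors that maintain and transcribe mitochondrial DNA (9 genes) were at 0.77, with Polrmt, the mitochondrial RNA polymerase, and Tfb2m, its initiation factor, at 0.60 each and Polg, the replicative polymerase, at -0.11. The list of ribosomal proteins with other symbols, which also holds Oxa1l (7 genes in all), was at 0.53. With each of its genes scaled to an SD of 1, again chosen after seeing the data, it was at 0.70. Ict1 reached 0.64 while Ptcd3 was at -0.06.

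The regulators of mitochondrial biogenesis did not follow as a list, with r = 0.01 over 10 genes. Esrra was at 0.44, Ppargc1a at 0.32 and Gabpa at 0.29, whereas Nrf1 and Pprc1 were at -0.28 and -0.32, and Myc was lowest at -0.56. The mean of the 80 cytosolic ribosomal protein genes was at -0.08.

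**Figure D4:**
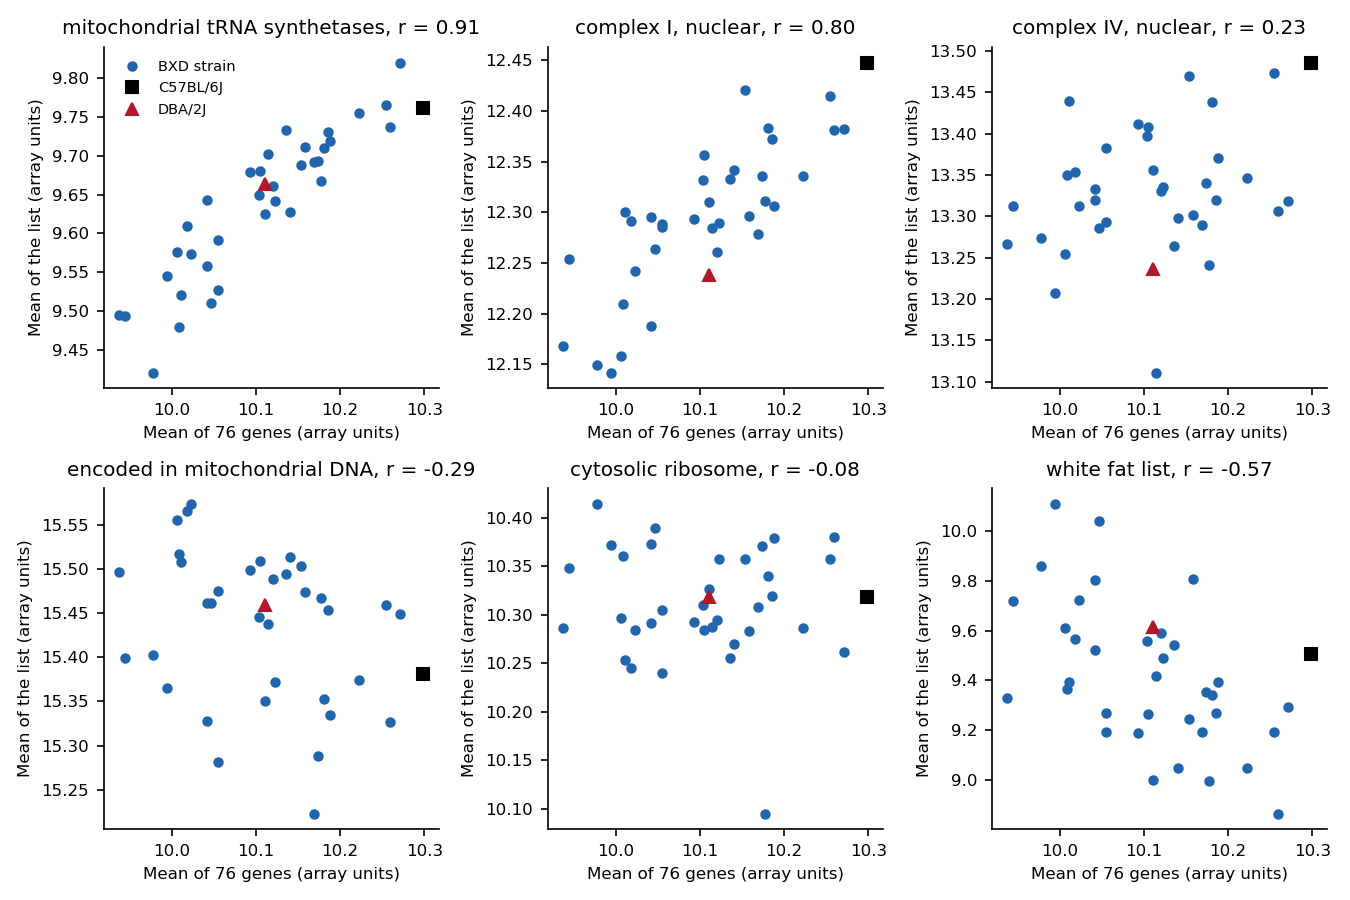
Mean of the 76 genes (horizontal) against the mean of 6 gene lists (vertical), both in array units, with 1 circle per BXD strain, a square for C57BL/6J and a triangle for DBA/2J, and r over the BXD strains above each panel. The points rise together for the mitochondrial tRNA synthetases (0.91) and complex I (0.80), scatter for complex IV (0.23) and the cytosolic ribosome (-0.08), and fall with the white fat list (-0.57).

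Single respiratory chain genes differed widely in their r with the mean of the members. The highest were Ndufab1, the mitochondrial acyl carrier protein and a subunit of complex I (0.85), Ndufv3 (0.73), Sdhd, a membrane anchor of complex II (0.70), and Uqcrfs1, the Rieske protein of complex III, and Ndufb8 of complex I (0.67 each). Ndufab1 ran from 9.62 units in BXD79 through 9.93 to 10.23 in BXD87, ends that are also among the end strains of the members. Among the lowest were Cox6a2, the complex IV isoform of muscle (-0.35), Atp5b, the catalytic beta subunit of complex V (-0.17), Atp5j2 (-0.15) and Atp5g1 (-0.00). Atp5j2 and Atp5g1 lay below the detection limit, and Atp5b, at 15.75 units, near the top of the scale. In all, 16 of the 78 reached r of 0.5.

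To test the link member by member, the respiratory chain mean was the covariate in limma, fitted across 41065 probe sets. Of the 76 members, 18 passed an adjusted p of 0.05 with a positive slope and 0 with a negative one, where 1.24% and 1.21% of all probe sets passed. At an unadjusted p under 0.05 by limma the counts of members were 46 and 0, and those of all 41065 probe sets 3015 and 2477. Smallest in adjusted p were Mrpl38 (r = 0.74, slope 1.84 ± 0.32 SE, adjusted p = 0.0017), Mrpl9 (0.71, adjusted p = 0.0032), Mrps18b (0.69, adjusted p = 0.0032), Mrps31 (0.69, adjusted p = 0.0036) and Mrps21 (0.63, adjusted p = 0.012). The second probe set of Mrps18b had r of 0.47 and did not pass (adjusted p = 0.12), which makes the count 17. Among members not called, further probe sets of Mrpl43 (r = 0.70, limma adjusted p = 0.0046) and Mrps16 (0.53, limma adjusted p = 0.041) passed. The probe set used for Mrpl43 had r of 0.49 (limma adjusted p = 0.089), and its remaining ones did not pass either. Mrps5 had r of 0.48 and an adjusted p of 0.093. The 18 hold 13 large and 5 small subunit genes, and with arrays centred on their median the count was 36.

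The count moved with the strains left out and with the list means added as covariates. Whether these list means follow the tissue makeup of the pools was not tested. Without BXD61, the strain lowest in the respiratory chain mean, 9 members passed, without BXD97 or without BXD101 the count was 11, and without the 2 strains farthest from the median of the covariate it was 3. With the white fat and macrophage lists as further covariates, an alternative chosen after seeing the data, 0 members passed, as did 0 probe sets of any kind. At an unadjusted p under 0.05 limma then gave 22 members with a positive slope and 0 with a negative one. Over all 41065 probe sets these counts were 1202 and 993. The correlation of the means given both lists was 0.52. BXD61 was also the highest strain in the white fat list (10.11 units, median 9.37) and in the macrophage list (10.67, median 9.56).

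Members were also set against the lists of other tissues and cells in the same way. With the white fat list, 15 members passed with a negative slope and 1, Mrps6, with a positive one, where 2.80% and 2.19% of all probe sets passed. Mrpl34 led (r = -0.73, slope -0.75 ± 0.12 SE, adjusted p = 0.00021), then Mrpl39 and Mrpl38 (-0.67, adjusted p = 0.0029 each), Mrps31 (-0.66) and Mrps36 (-0.63). Without BXD90 the 15 became 7, without BXD97 8 and without BXD61 or BXD79 9. The white fat list holds 9 genes, 6 of them above the detection limit, and its mean ran from a low in BXD90 to a high in BXD61 over 1.24 units. With the brown fat list, 12 members passed with a positive slope and 0 with a negative one, where 1.16% and 0.868% of all probe sets passed. At an unadjusted p under 0.05 by limma the counts of members were 30 and 1, and those of all 41142 probe sets 3317 and 2929. The 12 were led by Mrps2 (r = 0.69, adjusted p = 0.0013), Mrpl10 (0.71, adjusted p = 0.0021), Mrps27 (0.63), Mrpl12 (0.62) and Mrps23 (0.60). Without BXD45 the 12 became 6, and without BXD51, BXD84 or BXD87 it was 7. The brown fat list shares Cox7a1 and Cox8b with complex IV, and its mean was lowest in BXD97 and highest in BXD87, as were the tRNA synthetases.

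With the macrophage list, a fit added after the data had been seen, 9 members passed with a negative slope and 0 with a positive one. Of all probe sets, 1.14% and 2.22% passed. At an unadjusted p under 0.05 by limma the counts of members were 34 and 1, and those of all 41148 probe sets 3120 and 2955. Mrpl30 led (r = -0.63, adjusted p = 0.0066), followed by Mrpl38, Mrpl39, Mrps24 and Mrpl50. Without BXD61 the count was 2, and without BXD48 or BXD97 it was 5. The mean of the skeletal muscle list varied over 3.69 units between pools. Mrpl4 (r = -0.72, limma adjusted p = 0.0012) and Mrpl10 (-0.56, limma adjusted p = 0.045) passed with a negative slope and 0 members with a positive one. When single strains were left out, 1 to 4 members passed with a negative slope. Of all probe sets, 0.328% and 1.50% passed. At an unadjusted p under 0.05 by limma the counts of members were 16 and 0, and those of all 41142 probe sets 2422 and 2110. For the liver list, which was at 12.27 units in BXD70 against a median of 7.11, 0 members passed in either direction. Of all probe sets, 0.591% passed with a positive and 0.0365% with a negative slope. At an unadjusted p under 0.05 limma gave 3 members with a positive and 0 with a negative slope. Over all 41146 probe sets these counts were 1351 and 1400.

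Mrps5 was detected in all 35 strains, and its range of 1.0 units was above the members' median of 0.72. It ran from 9.73 units in BXD50 through a median of 10.19 to 10.73 in BXD87, with a mean of 10.21 ± 0.20 (SD, n = 35), and lay at 10.38 in C57BL/6J and 10.12 in DBA/2J. Both parents fell inside the range of the BXD strains. Its r with the mean of the other members was 0.75. A second probe set for Mrps5 had a mean of 8.26 ± 0.24 (SD, n = 35), above the detection limit. It followed the first at r = 0.26 only, and the members' mean at 0.33. With the respiratory chain mean its r was 0.08 (limma, adjusted p = 0.9), against 0.48 for the first. The results for Mrps5 below are those of the first probe set unless a setting is named.

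The transcript most like Mrps5 over strains was Lace1, an ATPase of mitochondrial protein turnover also called Afg1l (r = 0.77, adjusted p = 0.0032 in limma with Mrps5 as covariate). Next came Lypla1, a depalmitoylating enzyme (0.75), Sdhd (0.74), Ndufab1 (0.73), Bpnt1, a phosphatase of sulphation (0.72), Mrps18b (0.72), a further probe set of Mrpl43 (0.72), Gm19447 (0.71), Rtn4ip1, a mitochondrial protein (0.71), and Ufd1l, a factor of protein degradation (0.71). All 10 rose with Mrps5 and all 10 passed an adjusted p of 0.05. In that fit 51 probe sets, 0.124% of 41153, passed with a positive slope and 9, 0.0219%, with a negative one.

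Of the other 75 members, 3 rose with Mrps5 and 0 fell at an adjusted p of 0.05 (limma). The 3 were Mrps18b (slope 0.65 ± 0.12 SE, adjusted p = 0.013), Mrpl47 (r = 0.69, adjusted p = 0.016) and Mrps25 (r = 0.67, adjusted p = 0.04). At an unadjusted p under 0.05 limma gave 47 members with a positive slope and 0 with a negative one. Over all 41153 probe sets these counts were 2599 and 2558. The second probe set of Mrps18b also passed (r = 0.69, adjusted p = 0.031). Of the 78 respiratory chain genes, Sdhd and Ndufab1 passed (adjusted p = 0.013 each), and Yars2 (adjusted p = 0.047) and Dnaja3, a mitochondrial chaperone (adjusted p = 0.031), passed among the other mitochondrial lists. These calls depended on single settings. By limma, 0 probe sets passed without BXD87, with all probe sets of a gene averaged or with the skeletal muscle list as covariate. In these settings 42, 39 and 45 members had a positive slope at an unadjusted p under 0.05. Of everything tested, 2447 of 41153, 1977 of 37419 and 2121 of 41153 had one. Without BXD99, 207 probe sets and 17 members passed with a positive slope.

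**Figure D5:**
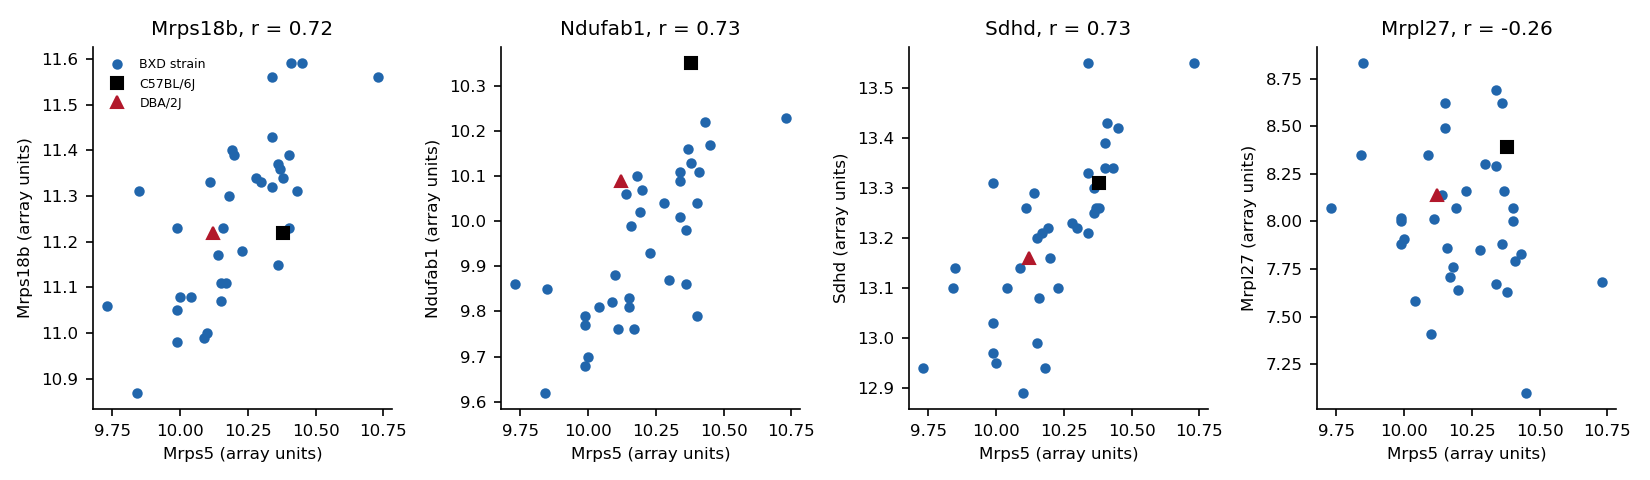
Mrps5 (horizontal) against Mrps18b, Ndufab1, Sdhd and Mrpl27 (vertical), all in array units, with 1 circle per BXD strain, a square for C57BL/6J and a triangle for DBA/2J. The first 3 rise with Mrps5 at r between 0.72 and 0.74, and Mrpl27 does not.

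Mrps5, by its first probe set, was also compared with the means of 12 lists by permutation (100000 permutations, two-sided, Benjamini-Hochberg over the 12). It rose with complex I (r = 0.57, rho = 0.63, permutation p = 0.0003, adjusted p = 0.0026), complex III (r = 0.56, rho = 0.64, permutation p = 0.00044, adjusted p = 0.0026) and complex II (r = 0.53, rho = 0.57, permutation p = 0.001, adjusted p = 0.0041). With the mean of all 78 chain genes r was 0.48 (rho = 0.49, permutation p = 0.0036, adjusted p = 0.011). Complex V did not pass (r = 0.28, permutation p = 0.097, adjusted p = 0.13), nor did complex IV (r = 0.02, adjusted p = 0.95 by permutation, and 0.33 and 0.067 with list genes scaled to an SD of 1) or the transcripts of mitochondrial DNA (r = -0.01, adjusted p = 0.95 by permutation). Without BXD87 and BXD50, the strains farthest from the median of Mrps5, r was 0.61 for complex I, 0.60 for complex III, 0.50 for complex II and 0.52 for the chain.

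Mrps5 also rose with the brown fat list (r = 0.41, permutation p = 0.013, adjusted p = 0.028) and fell with the macrophage list (r = -0.40, permutation p = 0.017, adjusted p = 0.028), the skeletal muscle list (r = -0.40, permutation p = 0.016, adjusted p = 0.028) and the white fat list (r = -0.38, permutation p = 0.023, adjusted p = 0.034). These 4 calls depended on the setting. With muscle regressed out, brown fat (r = 0.33, permutation, adjusted p = 0.1), macrophage (-0.33, permutation, adjusted p = 0.1) and white fat (-0.27, permutation, adjusted p = 0.16) did not pass. Without BXD87 brown fat (r = 0.31) and macrophage (-0.31) did not pass, macrophage also failed without BXD61 or BXD95, muscle without BXD81, BXD90 or BXD95, and white fat without any 1 of BXD45, BXD61, BXD79, BXD81, BXD90, BXD95 and BXD97 (-0.36 to -0.34). The liver list did not pass (r = 0.03, adjusted p = 0.95 by permutation). With white fat and macrophage lists regressed out, complexes I, II and III no longer passed (r = 0.42, 0.38 and 0.41). Complexes I and III passed under every other setting run, whereas complex II and the chain did not pass with all probe sets of a gene averaged. Labels gave no scan date or batch, so none could be used as a block.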

How the data were processed

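BAT RNA of 37 strains was measured on 1 array each. The authors deposited 1 table of 41345 probe sets, whose values are scores: each array had been rescaled to a mean of 8 and an SD of 2. Per the labels, Affymetrix Expression Console was used, and the summary method, log base and genome build are not given in the sources used here. Tests had been planned for log2 values and were run on the scores as they are, so slopes are in array units. The 190 array controls were dropped, which left 41155 probe sets. The number of arrays limits the precision. Columns were matched to strains by name. Promoter windows, gene order and older symbols came from RefSeq (GRCm38.p6), and no sequence is shown for proteins.

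Members and gene lists were chosen with earlier results of these data known, and the complexes and pathways were listed from general knowledge. Covariate fits used limma 3.58.1 (lmFit and eBayes, 35 BXD strains, Benjamini-Hochberg over all probe sets tested) in R 4.3.3. The fit to Mrps5 was tried on simulated data in which 200 probe sets followed it. Each probe set was given its own independent noise, and slopes were set in SD of that noise per SD of Mrps5. The fit recovered 2% of slopes of 0.5, 96% at 1 and 100% at 2, with 0, 9 and 15 false calls. Real probe sets vary together over strains, so these counts of false calls need not hold for the real arrays. Since weak slopes were mostly missed, a member that was not called may still follow the covariate. The 100000 permutations per value can give no p below 1e-05. They and the descriptions used Python 3.11.15, with pandas 2.3.3, numpy 2.4.6 and scipy 1.17.1, and figures matplotlib 3.10.9. Nothing in the labels says that arrays are independent in processing, so p-values measure only the spread between these arrays.

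Alternatives were both parents included, quantile normalization, centring on the median, all probe sets of a gene averaged, the muscle list or first principal component as covariate, ranks or Spearman's rho, strains left out, a filter on dim probe sets, list genes scaled to an SD of 1, and other limits and thresholds. White fat and macrophage lists as covariates, the macrophage fit and the second probe set of Mrps18b were added after seeing the data. So were scaled genes for the complexes and for the ribosomal proteins with other symbols, and the cytosolic ribosome above the limit. S6 kinases and Rps19bp1, which the symbol rule had let in, were taken out of the cytosolic list.

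The genes named are Mrps5, the 10 members with the largest range, the 5 highest and 5 lowest in r with the other members, the 5 smallest adjusted p in each direction of each fit, the 10 transcripts most like Mrps5, the 5 highest and 5 lowest respiratory chain genes, members below the limit, members whose parental difference passed the 95th percentile, a member whose top strain stands apart by at least 1 unit, and genes of the lists. Gene neighbours were named after their values were seen. Of the genes this rule names, 1 is not reported here.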

Additional observations from a re-analysis of the deposited data

How the results depend on the processing

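No paired analysis was possible because every BXD strain was measured once and the groups share no replicate numbers that pair arrays. The number of members above the detection limit, the median SD, the number of members with another member called and both parental results stayed within 1.5 times, or within 1 SD, of the reported value under every alternative run for them.

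With the 5th to 95th percentile range, 2 members reached 1 unit instead of 11. Of the 2850 pairs of members, 30 reached r of 0.7, and 228 reached 0.5 with white fat and macrophage lists regressed out. Leaving out each strain in turn gave 389 to 515 pairs.

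For the respiratory chain fit the 18 members became 36 with arrays centred on their median and 30 with only probe sets above the limit tested. The count was 3 without the 2 strains farthest from the median and 4 at an adjusted p of 0.01. It was 0 with white fat and macrophage lists as covariates. There limma gave 22 members with a positive slope at an unadjusted p under 0.05, against 1202 of 41065 probe sets. Without single strains the count was 9 (BXD61) to 21.

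For the Mrps5 fit, the 51 probe sets with a positive slope, 9 with a negative slope, 3 members and 2 respiratory chain genes became 310, 31, 23 and 5 with centred arrays, 265, 102, 21 and 4 with only probe sets above the limit, 208, 95 and 18 (the first 3) with ranks, 93, 26 and 9 with both parents, and 10, 4, 1 and 1 without the 2 farthest strains. Quantile normalization gave 25 with a positive slope. All 4 counts were 0 with all probe sets of a gene averaged and with the muscle list, and an adjusted p of 0.01 or the white fat and macrophage lists left 1, 0, 0 and 0. Without single strains these counts ran from 0 (BXD87) to 207 (BXD99), from 0 to 84, from 0 to 17 and from 0 to 3.

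For the tissue lists, leaving out the 2 farthest strains gave 1 member for muscle (2 reported), 8 negative and 0 positive for white fat (15 and 1), 3 for brown fat (12) and 4 for macrophage (9), and an adjusted p of 0.01 gave 1, 6 and 0, 3 and 1. With only probe sets above the limit, 4 members passed for muscle. For macrophage, 1 member with a positive slope passed with quantile normalization, with probe sets averaged and with only probe sets above the limit. Without single strains the counts were 1 to 4 for muscle, 7 (BXD90) to 17 for white fat, 6 (BXD45) to 15 for brown fat, and for macrophage 2 (BXD61) to 11 with a negative and 0 to 1 with a positive slope.

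Of the correlations of Mrps5 with list means, those that lost their call, with the adjusted permutation p, were white fat with quantile normalization (r = -0.36, 0.053). With all probe sets of a gene averaged they were the respiratory chain (0.35, 0.066), complex II (0.37, 0.056) and white fat (-0.21, 0.34). With muscle regressed out they were brown fat (0.33, 0.1), white fat (-0.27, 0.16) and macrophage (-0.33, 0.1). Without the 2 farthest strains they were brown fat (0.30, 0.12) and macrophage (-0.37, 0.054). With white fat and macrophage regressed out they were the chain (0.28, 0.18), complex I (0.42, 0.073), complex II (0.38, 0.079), complex III (0.41, 0.073), brown fat (0.31, 0.16) and muscle (-0.30, 0.16). Complex V gained one with centred arrays (0.41, 0.028) and with scaled genes (0.38, 0.035). Without single strains r was 0.23 to 0.41 for complex V, 0.31 to 0.46 for brown fat, -0.45 to -0.34 for white fat, -0.49 to -0.37 for muscle and -0.48 to -0.31 for macrophage, each losing or gaining its call without at least 1 strain. The causes of these changes were not tested.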
